A study of Bos taurus with 6 samples.

Results

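Ketone bodies are small fuel molecules, and the 7 genes described here encode proteins that carry them across membranes or act in their metabolism. These are the monocarboxylate transporter genes SLC16A1 and SLC16A7, the mitochondrial enzyme genes BDH1, OXCT1 and ACAT1, and the cytosolic enzyme genes BDH2 and AACS. They were taken by gene symbol from the 12826 genes of the deposited count table, and 7 of 7 were present and passed the filter on low counts. The libraries hold polyadenylated RNA from pools of bovine blastocysts (Bos taurus) at day 7, produced in vitro from slaughterhouse material. Embryos of 3 libraries received beta-hydroxybutyrate (BHB), the main circulating ketone body, and those of 3 control libraries were cultured without it. No source used here gives the dose, the time of exposure or the number of embryos in a pool. Whether the pools came from separate cultures is also not stated, so the spread behind each p-value may be technical.

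BHB enters cells with protons through monocarboxylate transporters, which also carry lactate and pyruvate, the fuels on which early embryos mainly depend. In mitochondria BHB is oxidised to acetoacetate by the enzyme that BDH1 encodes. Acetoacetate then takes CoA from succinyl-CoA in the step catalysed by the OXCT1 product, which most tissues need to burn ketone bodies, and the thiolase encoded by ACAT1 splits the resulting acetoacetyl-CoA into acetyl-CoA. AACS encodes a cytosolic enzyme that activates acetoacetate for the synthesis of lipids, and BDH2 encodes a cytosolic dehydrogenase related to BDH1 in function.

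Total counts ran from 6440732 to 7348949 in BHB libraries and from 7925889 to 8176648 in control libraries, so the BHB libraries were the shallower ones without overlap. The unit of level is CPM, the count of a gene scaled to a fixed library total after correction with TMM factors. CPM values here are not divided by gene length, so levels of different genes are not compared. A refit of the authors' deposited comparison showed that it joins each BHB library with the control library of the same number in 1 of 3 pairs. The libraries are therefore also compared within these pairs, and the pairing is not stated in the labels. Markers of blastocyst cell types were looked up: 8 of 8 trophectoderm markers were in the table, as were 5 of 6 inner cell mass and epiblast markers (without SOX2) and 4 of 5 primitive endoderm markers (without SOX17). Their sums, in that order, were 8321 to 13479, 549.6 to 626 and 162 to 218 CPM in BHB libraries. In control libraries the sums were 10545 to 17163, 593 to 644 and 142 to 217 CPM. Of markers of cells that a pool could also hold, 3 of 10 for cumulus and granulosa cells, 1 of 7 for blood and immune cells and 2 of 5 for sperm were present, as were 2 of 9 oocyte transcripts. In that order their summed levels were 28.2 to 35.3, 4.29 to 7.01, 4.29 to 5.40 and 1.75 to 3.88 CPM in BHB libraries and 29.6 to 37.5, 3.18 to 6.14, 2.12 to 6.46 and 3.87 to 5.88 CPM in control libraries.

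No member passed the test between BHB and control blastocysts. By edgeR's quasi-likelihood test without pairing, 0 of 7 members had an adjusted p under 0.05, as did 0 of all 12732 tested genes (0%), and limma-voom also called 0 genes. At an unadjusted p under 0.05 there were 0 members, against 2.73% of all genes. The log2 fold change was negative in 4 of 7 members, with a median of -0.13, and in 50.9% of all tested genes. These 4 members, SLC16A1, SLC16A7, OXCT1 and ACAT1, were lower with BHB in 3 of 3 pairs, as were 15.7% of all tested genes, and no member was higher in 3 of 3 pairs, as 14.5% were. The BHB and control groups overlapped in 7 of 7 members, whereas they did not overlap in 7.84% of all genes. DESeq2's Wald test called 0 of 7 members without pairing, where it called 0.0468% of all genes.

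SLC16A1 encodes MCT1, a widely expressed transporter of lactate, pyruvate and ketone bodies. It was at 667, 789 and 603 CPM in BHB libraries 1 to 3, against 835, 975 and 663 CPM in control libraries 1 to 3. The highest BHB library lay above the lowest control library, so the groups overlapped, and library 2 was the highest of its group in both. The means were 686 ± 94.2 CPM with BHB and 825 ± 156 CPM in controls (SD, n = 3 each), a log2 fold change of -0.26 (SE 0.17, edgeR adjusted p = 0.999). On the linear scale this is a fold of 0.832, with a 95% interval from 0.638 to 1.09. Within pairs the log2 differences were -0.32, -0.31 and -0.14 in pairs 1 to 3, and BHB libraries held 0.799, 0.809 and 0.909 of their partner's level. With the pair as a block the log2 fold change was -0.26 (SE 0.09), at an unadjusted p of 0.0198 and an adjusted p of 0.534 in edgeR.

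SLC16A7 encodes MCT2, a transporter with a high affinity for pyruvate and ketone bodies. Its levels were 88.6, 39.5 and 31.7 CPM in BHB libraries 1 to 3, against 177, 59.3 and 36.4 CPM in control libraries 1 to 3. Library 1 stood far above the others of its group in both groups, and BHB library 1 was higher than control libraries 2 and 3. The mean was 53.3 ± 30.9 CPM with BHB and 91.0 ± 75.6 CPM in controls (SD, n = 3 each). This is a log2 fold change of -0.77 (SE 0.56, edgeR adjusted p = 0.999), with a 95% interval for the fold from 0.244 to 1.41. Without control library 1 it was 0.16, so its direction rests on that library when pairs are ignored.

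Within pairs SLC16A7 differed by -0.998, -0.583 and -0.200 on the log2 scale, so that BHB libraries held 0.500, 0.666 and 0.870 of their partner's level. The difference was largest in the pair with the highest level and smallest in the pair with the lowest. With the pair as a block the log2 fold change was -0.62 (SE 0.16), at an unadjusted p of 0.00299 and an adjusted p of 0.360 in edgeR, and without pair 1 it was -0.40 (adjusted p = 0.676 in edgeR). SLC16A1 and SLC16A7 were the 2 members with an unadjusted p under 0.05 in this fit, where 8.20% of all tested genes had one. No member and 0 of all genes had an adjusted p under 0.05 in it. DESeq2 with the same block called 0.339% of the genes for which it gives an adjusted p, and 0 of the 6 members that have one, BDH1 having none (adjusted p = 0.199 for SLC16A7 and 0.760 for SLC16A1).

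**Figure D1:**
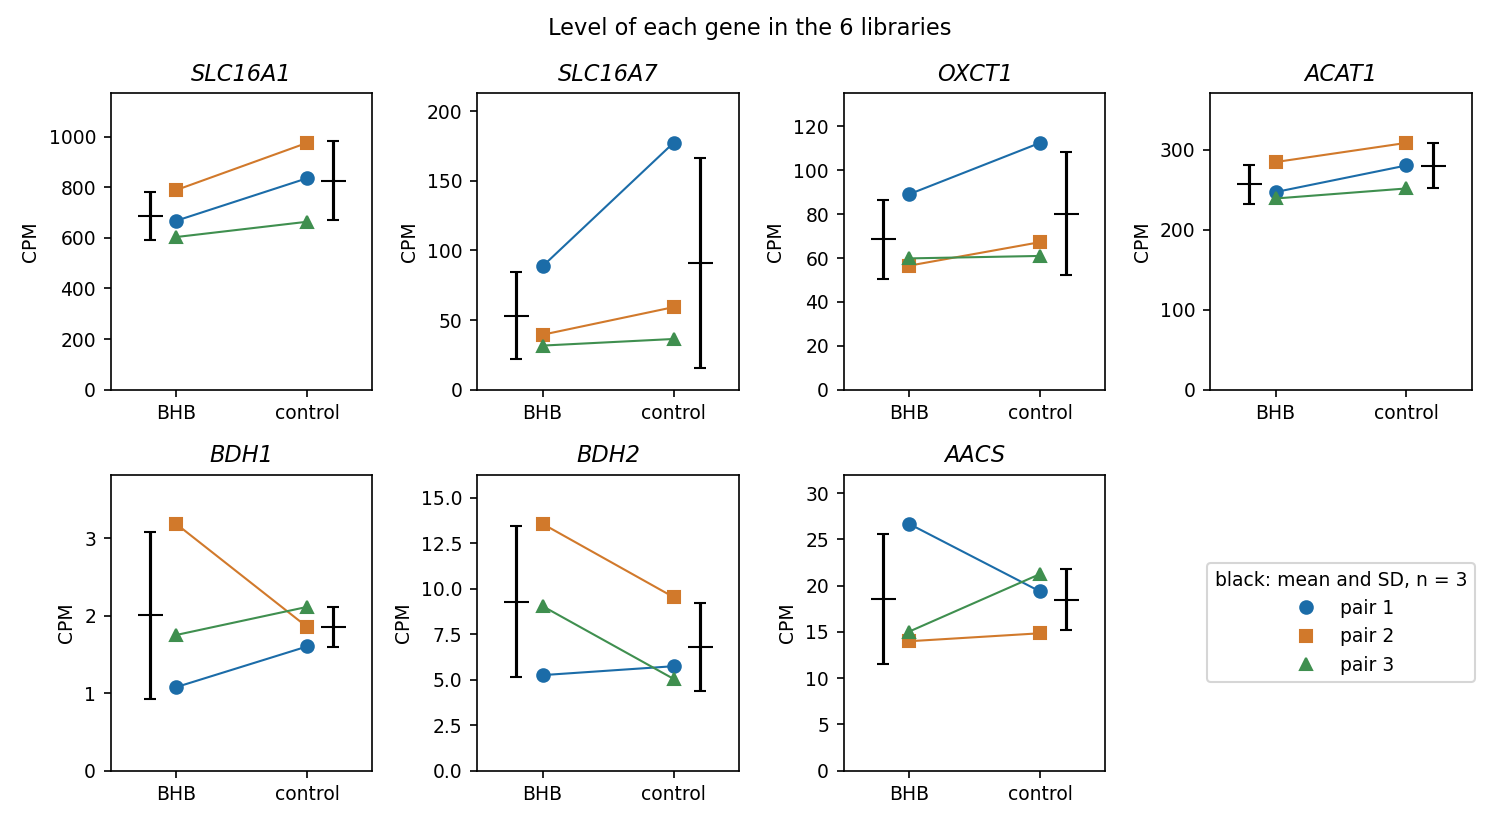
CPM (vertical axis, from 0) of each of the 7 genes in BHB and control libraries. Lines join the libraries of a pair, and black bars give the mean and SD of 3 libraries; the lines of SLC16A1, SLC16A7, OXCT1 and ACAT1 are lower at the BHB end in 3 of 3 pairs, and SLC16A7 of pair 1 stands apart at 88.6 CPM with BHB and 177 CPM in control.

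The balance of both transporters was measured within each library as the share of SLC16A7 in the summed counts of SLC16A1 and SLC16A7. This share does not depend on library size, and it depends on the lengths of both genes in the same way in each library. It was 11.7% (95% exact Clopper-Pearson interval 10.9 to 12.6), 4.77% (4.24 to 5.34) and 4.99% (4.36 to 5.68) in BHB libraries 1 to 3. It was 17.5% (16.7 to 18.4), 5.73% (5.22 to 6.27) and 5.20% (4.65 to 5.80) in control libraries 1 to 3. These intervals cover counting error alone. The BHB library had the lower share in 3 of 3 pairs, with differences of -5.78, -0.963 and -0.213 percentage points, and in pairs 2 and 3 the intervals overlapped. The means were 7.16% ± 3.96 with BHB and 9.48% ± 6.96 in controls (SD, n = 3 each; p = 0.5, exact two-sided permutation test, where 3 against 3 libraries allow no p under 0.1). The difference of the means was -2.32 percentage points with all libraries and 1.70 without control library 1, so its direction rested on that library when pairs are ignored.

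BDH1, the mitochondrial BHB dehydrogenase gene, had few counts in every library. Its counts were 8, 23 and 12 in BHB libraries 1 to 3, against 12, 14 and 18 in control libraries 1 to 3. The exact 95% Poisson interval was 3.45 to 15.8 around the lowest of these counts and 14.6 to 34.5 around the highest, both of them in BHB libraries. As levels they were 1.08, 3.19 and 1.75 CPM with BHB and 1.60, 1.86 and 2.11 CPM in controls, so the 3 control libraries lay inside the range of the BHB libraries. The log2 fold change was 0.11 (SE 0.50, edgeR adjusted p = 0.999), and a fold from 0.496 to 2.33 lay within its 95% interval. The log2 differences within pairs were -0.48, 0.70 and -0.24 in pairs 1 to 3. Without BHB library 2 the log2 fold change was -0.39.

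OXCT1, whose product activates acetoacetate, was at 89.0, 56.5 and 59.8 CPM in BHB libraries 1 to 3, against 112, 67.2 and 60.9 CPM in control libraries 1 to 3. Library 1 was the highest of its group in both, as for SLC16A7, and BHB library 1 exceeded control libraries 2 and 3. Means were 68.5 ± 17.9 CPM with BHB and 80.2 ± 28.1 CPM in controls (SD, n = 3 each), with a log2 fold change of -0.23 (SE 0.26, edgeR adjusted p = 0.999). The log2 differences within pairs were -0.34, -0.25 and -0.03. In pair 3 the counts of 410 with BHB and 519 in control correspond to nearly equal CPM once library size is taken into account. Without control library 1 and without pairing the log2 fold change was 0.10. With the pair as a block it was -0.21 (SE 0.12, edgeR adjusted p = 0.708), and without pair 1 it was -0.14.

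ACAT1, whose thiolase forms acetyl-CoA from acetoacetyl-CoA and also acts in isoleucine breakdown, varied least among the members. It was at 247, 285 and 239 CPM in BHB libraries 1 to 3, against 281, 309 and 252 CPM in control libraries 1 to 3. The highest of the 6 libraries had 1.29 times the level of the lowest, whereas this ratio was 5.60 in SLC16A7 and 1.62 in SLC16A1. The log2 fold change was -0.13 (SE 0.13, edgeR adjusted p = 0.999), with a 95% interval of the fold from 0.743 to 1.13. Within pairs the differences were -0.18, -0.12 and -0.07, each smaller than those of SLC16A1 in the same pair. With the pair as a block the log2 fold change was -0.12 (SE 0.10, edgeR adjusted p = 0.790).

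The cytosolic enzymes did not share 1 direction across pairs. BDH2 was at 5.25, 13.6 and 9.05 CPM in BHB libraries 1 to 3, against 5.74, 9.55 and 5.05 CPM in control libraries 1 to 3. It was lower with BHB in pair 1 (-0.12) and higher in pairs 2 and 3 (0.50 and 0.81), with a log2 fold change of 0.46 (SE 0.40, edgeR adjusted p = 0.999). Without BHB library 2 that value was 0.08. The counts behind it were 39 to 98 per library.

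AACS was at 26.7, 14.0 and 15.0 CPM in BHB libraries 1 to 3, against 19.4, 14.8 and 21.3 CPM in control libraries 1 to 3. The 2 groups had nearly the same mean, 18.6 ± 7.04 CPM with BHB and 18.5 ± 3.29 CPM in controls (SD, n = 3 each). The log2 fold change was 0.01 (SE 0.28, edgeR adjusted p = 0.999), and its sign turned when the counts were scaled with DESeq2's size factors. Behind these means the pairs differed in sign, with AACS higher with BHB in pair 1 (0.46) and lower in pairs 2 and 3 (-0.08 and -0.49). BDH2 ran the other way, being lower in pair 1 and higher in pairs 2 and 3.

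**Figure D2:**
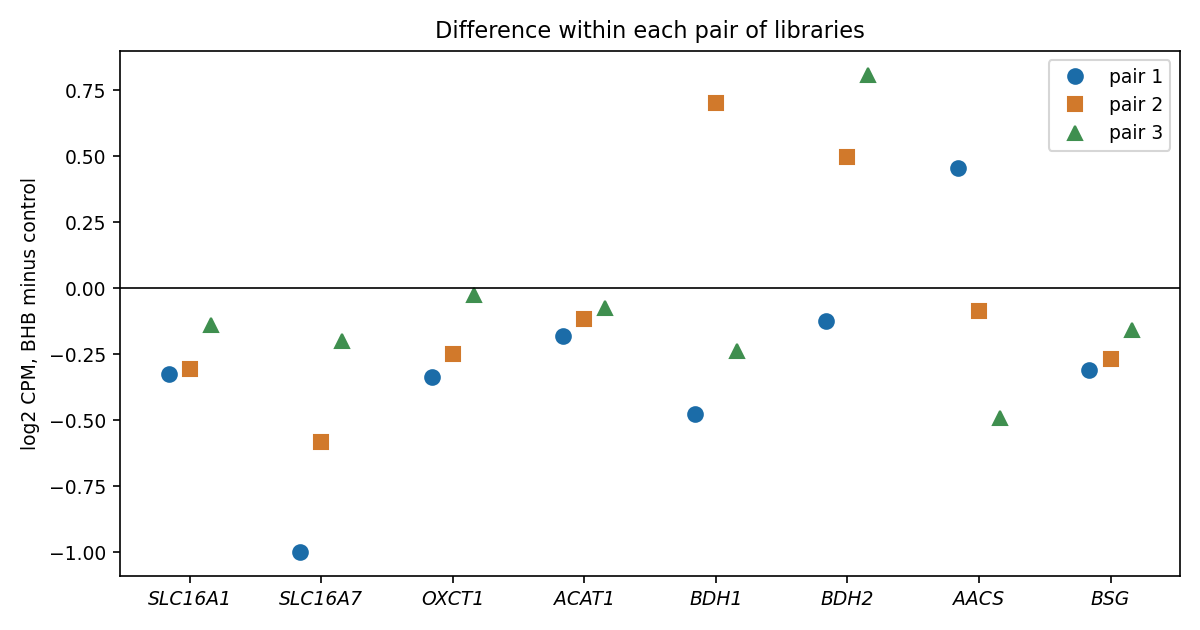
Difference in log2 CPM between the BHB and the control library of each pair (vertical axis; negative values are lower with BHB) for the 7 genes and for BSG, the gene of the MCT1 chaperone. SLC16A1, SLC16A7, OXCT1, ACAT1 and BSG lie below 0 in 3 of 3 pairs, and BDH1, BDH2 and AACS lie on both sides.

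**Figure D3:**
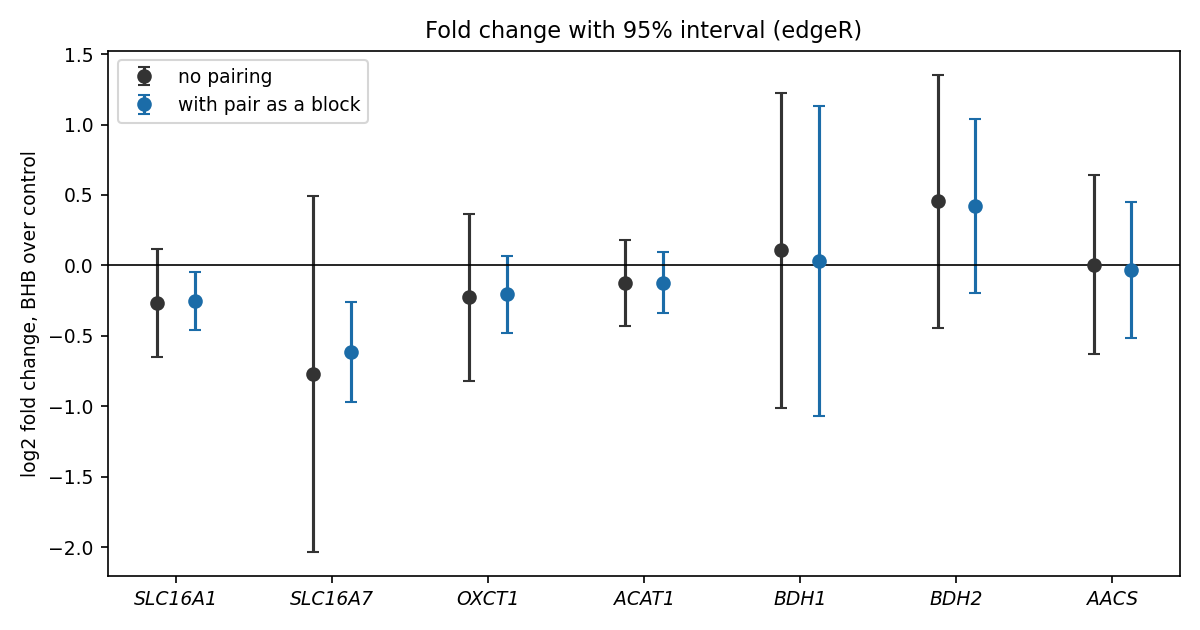
Log2 fold change of BHB over control (vertical axis) with its 95% interval from edgeR, without pairing (dark) and with the pair as a block (blue). Without pairing 7 of 7 intervals include 0; with the block those of SLC16A1 and SLC16A7 do not, at adjusted p = 0.534 and 0.360.

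More of the variation of each member lay between pairs than between treatments. Pair took 88.5% of the variance of log2 CPM over the 6 libraries in OXCT1, 84.6% in SLC16A7, 74.4% in ACAT1 and 67.1% in SLC16A1. Treatment took 8.17% in OXCT1, 11.9% in SLC16A7, 22.7% in ACAT1 and 29.7% in SLC16A1. Over all tested genes the median was 53.5% for pair, which has 2 of the 5 degrees of freedom, and 10.8% for treatment. By edgeR's test of pair with treatment in the model, 2 of 7 members passed, SLC16A7 (adjusted p = 0.0023) and OXCT1 (adjusted p = 0.0326), where 4.12% of all tested genes did. For SLC16A1 the adjusted p was 0.0909 in that edgeR test.

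The authors' deposited table gives adjusted p-values under 0.05 for 3 of the 7 members: 1.58e-16 for SLC16A7, 0.00603 for OXCT1 and 0.0161 for SLC16A1. Over all genes 5.04% have such a value in the authors' deposited table. Its p-values were recovered, within 1e-06 in 99.98% of genes, by a DESeq2 likelihood ratio test in which pair and treatment were dropped together. A small p-value there can thus come from a difference between pairs, between treatments or both, while the log2 fold change printed beside it is that of control over BHB alone. With the sign turned to BHB over control, the authors' deposited table gives -0.61 for SLC16A7, -0.21 for OXCT1 and -0.26 for SLC16A1.

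Both terms were therefore tested apart in the same DESeq2 model. For SLC16A7 the likelihood ratio statistic was 10.1 for treatment given pair (1 degree of freedom, adjusted p = 0.205) and 73.8 for pair given treatment (2 degrees of freedom, adjusted p = 6.81e-14). For OXCT1 it was 1.62 for treatment (adjusted p = 1.00) and 17.3 for pair (adjusted p = 0.00609). For SLC16A1 it was 5.13 for treatment (adjusted p = 0.764) and 11.1 for pair (adjusted p = 0.0628), so neither term passed alone. The test of treatment passed in 0.354% of the genes for which DESeq2 gives an adjusted p and in 0 of the 6 members that have one, BDH1 having none. The test of pair passed in 5.48% and in 2 of 7 members. For ACAT1, BDH2, BDH1 and AACS the authors' deposited table has adjusted p-values of 0.665, 0.466, 1 and 0.764.

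**Figure D4:**
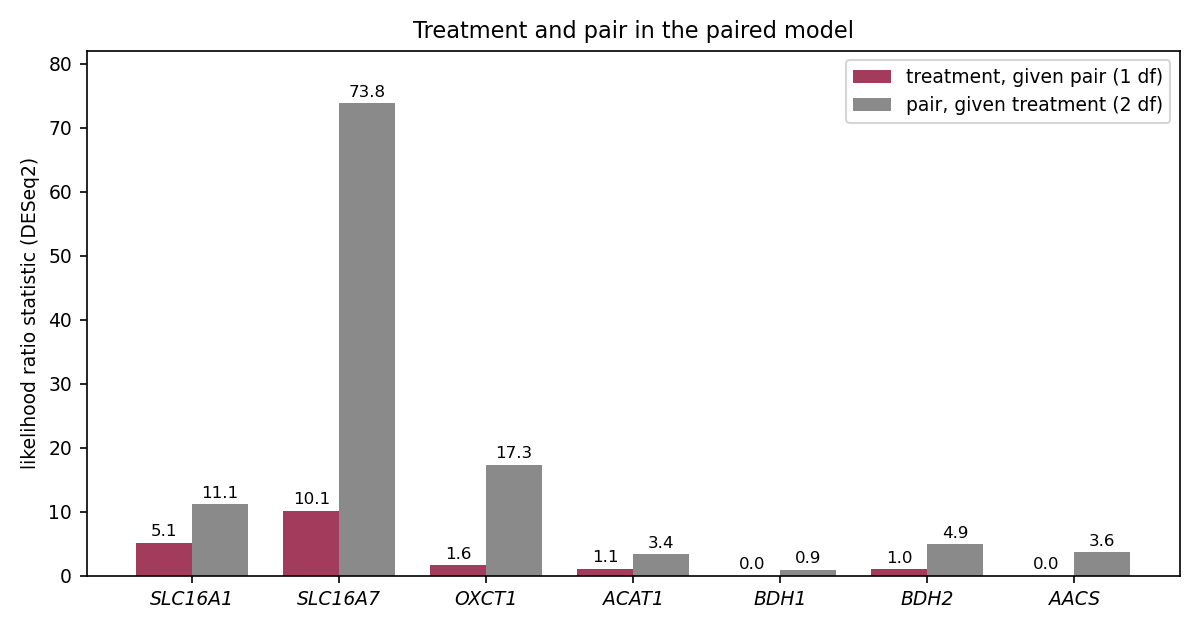
Likelihood ratio statistic from DESeq2 (vertical axis, from 0) for treatment given pair (red, 1 degree of freedom) and for pair given treatment (grey, 2 degrees of freedom). In SLC16A7, OXCT1 and SLC16A1, the 3 genes past 0.05 in the authors' deposited table, the bar for pair (73.8, 17.3 and 11.1) is higher than that for treatment (10.1, 1.6 and 5.1).

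The members showed different patterns over the 6 libraries. Log2 CPM of SLC16A1 and ACAT1 had a Pearson r of 0.98 (Spearman rho 0.89), both being highest in pair 2. SLC16A7 and OXCT1 had an r of 0.97 (rho 0.83), both being highest in pair 1. Across these sets the values were lower, as between OXCT1 and ACAT1 (r 0.08) and between SLC16A1 and SLC16A7 (r 0.42). BDH2 and AACS had an r of -0.90 (rho -0.94). These values describe 6 libraries that share treatment and pair, and so are not independent points.

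Among 8311 other genes with a symbol and a mean log2 CPM of at least 3, those most like SLC16A1 by Pearson's r over the 6 libraries were ELMO2 (r 0.998), ALG12 (0.992) and DPH6 (0.990). Those most like SLC16A7 were HSD11B1L (0.994), TMEM205 (0.992) and SGPL1 (0.992). The nearest to OXCT1 were PIGS (0.996), ALDH1A3 (0.994) and TSTD1 (0.993), and the nearest to ACAT1 were ERGIC3 (0.992), ZNF112 (0.990) and SIPA1L2 (0.989). These rankings are a description of 6 libraries.

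Of 10 other monocarboxylate transporter and chaperone genes tested, 0 passed edgeR's test, with 6 negative and 4 positive and a median log2 fold change of -0.17, against a median of -0.005 over all tested genes. SLC16A3, SLC16A4, SLC16A6, SLC16A8, SLC16A10, SLC5A8 and SLC5A12 were not analysed here. BSG encodes basigin, the chaperone that takes MCT1 to the cell surface. It was at 718, 752 and 598 CPM in BHB libraries 1 to 3, against 890, 905 and 668 CPM in control libraries 1 to 3. As in SLC16A1, the BHB and control groups overlapped and the level was lower with BHB in 3 of 3 pairs. Its differences within pairs were -0.31, -0.27 and -0.16, close to the -0.32, -0.31 and -0.14 of SLC16A1. The log2 fold change was -0.25 (SE 0.16, edgeR adjusted p = 0.999). EMB, which encodes embigin, the chaperone preferred by MCT2, had counts of 22 to 26 in BHB libraries and 18 to 29 in control libraries (log2 fold change 0.16, SE 0.35).

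In this list the smallest p-values belonged to sparse genes. SLC16A12, whose product carries creatine, had counts of 1, 7 and 5 in BHB libraries 1 to 3, against 25, 15 and 36 in control libraries 1 to 3. The groups did not overlap, as in 3.78% of all genes in this direction, and the log2 fold change was -2.36 (SE 0.63, unadjusted p = 0.00422, adjusted p = 0.999 in edgeR). SLC16A9, described in humans as a carnitine and creatine transporter, had counts of 6, 5 and 7 with BHB, against 13, 12 and 23 in controls. Its groups did not overlap either, with a log2 fold change of -1.25 (SE 0.49, unadjusted p = 0.0293, adjusted p = 0.999 in edgeR). SLC16A13, at 10.6 ± 2.86 CPM with BHB and 15.5 ± 2.84 CPM in controls (SD, n = 3 each), was lower in 3 of 3 pairs (log2 fold change -0.54, SE 0.27).

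Other enzymes that make or use acetoacetyl-CoA gave 0 genes past edgeR's test of 4 tested, 4 of them negative (median log2 fold change -0.16). HMGCS1, the cytosolic synthase of the cholesterol pathway, was at 165 ± 44.4 CPM with BHB and 216 ± 94.5 CPM in controls (SD, n = 3 each), and ACAT2, the cytosolic thiolase, at 140.5 ± 50.4 CPM with BHB and 168 ± 64.3 CPM in controls. In both the sign differed in pair 2 from that in pairs 1 and 3. HADHB, the thiolase subunit gene of mitochondrial fatty acid oxidation, had a log2 fold change of -0.06 (SE 0.14).

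Lactate and pyruvate genes, whose products work on the other loads of the same transporters, gave 0 of 15 past edgeR's test, with 13 negative and 2 positive and a median of -0.12. LDHA and LDHB encode the subunits of lactate dehydrogenase. LDHA was at 314, 264 and 228 CPM in BHB libraries 1 to 3, against 361, 271 and 245 CPM in control libraries 1 to 3. LDHB was at 963, 1148 and 958 CPM in BHB libraries 1 to 3, against 1128, 1086 and 892 CPM in control libraries 1 to 3. LDHA was lower in 3 of 3 pairs (log2 fold change -0.12, SE 0.18), and LDHB was lower in pair 1 alone (-0.02, SE 0.14). The share of LDHA in the counts of both was 20.8% ± 3.26 with BHB and 21.9% ± 2.17 in controls (SD, n = 3 each; p = 0.6, exact two-sided permutation test).

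The mitochondrial pyruvate carrier genes MPC1 and MPC2 had log2 fold changes of -0.05 (SE 0.22) and -0.17 (SE 0.12). MPC2 was at 94.3 to 102 CPM with BHB and at 108 to 116 CPM in controls, without overlap. The groups did not overlap in this direction for PDHB of the same list either, nor for 3.78% of all tested genes. PDK3, which encodes a kinase that switches off pyruvate dehydrogenase, was at 74.9 ± 11.5 CPM with BHB and 57.1 ± 7.93 CPM in controls (SD, n = 3 each). It was higher in 3 of 3 pairs (log2 fold change 0.39, SE 0.17, unadjusted p = 0.0476, adjusted p = 0.999 in edgeR), and was the 1 gene of this list with an unadjusted p under 0.05. PCK2, a mitochondrial enzyme gene that forms phosphoenolpyruvate, had a value of -0.43 (SE 0.29).

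Partners that supply succinyl-CoA or use acetyl-CoA gave 0 of 10 past edgeR's test, with 7 negative and a median of -0.08. SUCLG2, a subunit gene of the enzyme that interconverts succinyl-CoA and succinate, was at 208, 213 and 218 CPM in BHB libraries 1 to 3, against 238, 252 and 248 CPM in control libraries 1 to 3. Here the groups did not overlap, as in 3.78% of all tested genes in this direction. The difference was -0.20, -0.24 and -0.19 in pairs 1 to 3 (log2 fold change -0.21, SE 0.11, edgeR adjusted p = 0.999). CS, the citrate synthase gene, gave a log2 value of -0.16 (SE 0.17), and SLC25A1, the mitochondrial citrate carrier gene, at -0.29 (SE 0.28). Regulators known to act on ketone or transporter genes gave 0 of 8, with 6 positive and a median of 0.10. HIF1A had counts of 8 to 12 with BHB and 14 to 22 in controls (log2 fold change -0.72, SE 0.44), PPARGC1A a log2 fold change of 0.38 (SE 0.56) and MLXIP of 0.15 (SE 0.22). The 4 receptors HCAR1, HCAR2, FFAR2 and FFAR3, through which ketone bodies, lactate or short fatty acids signal, were not analysed here.

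**Figure D5:**
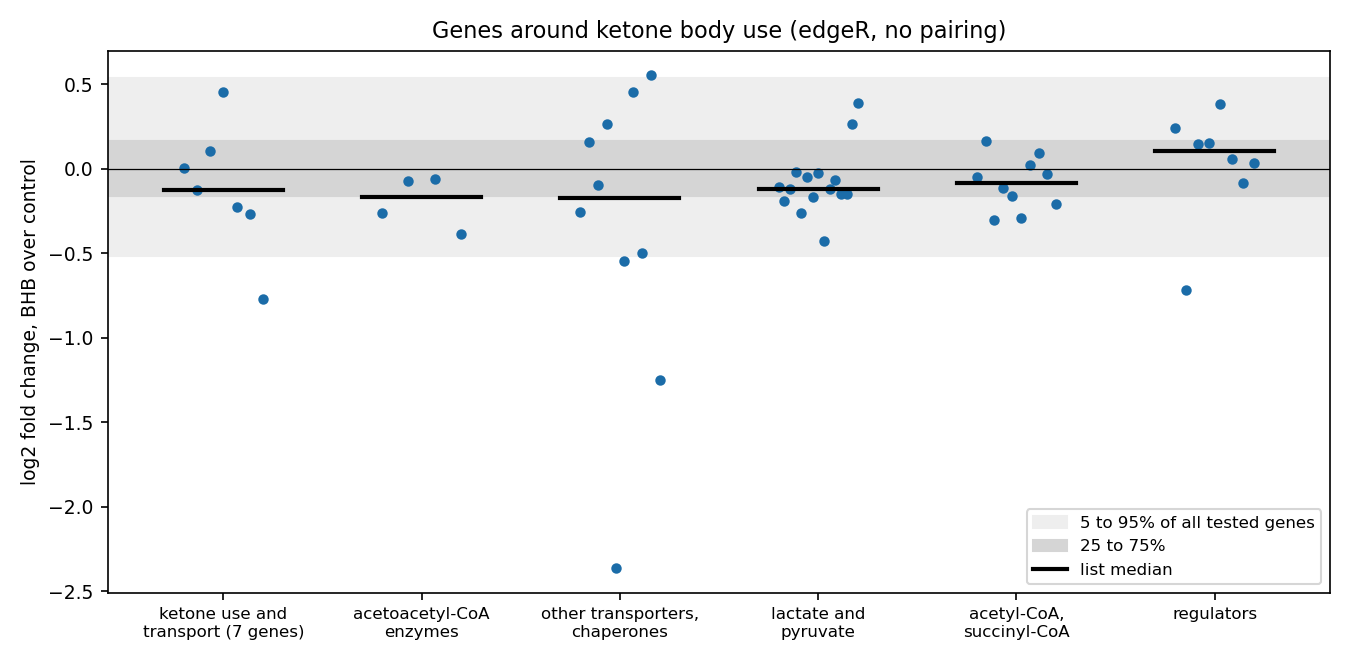
Log2 fold change of BHB over control (vertical axis, edgeR without pairing) for each tested gene of 6 lists, with list medians as black lines and the spread of all tested genes as grey bands. Medians run from -0.17 for other transporters and chaperones to 0.10 for regulators, and 0 genes passed the test; the lowest point is SLC16A12 at -2.36, which rests on 1 to 7 counts per BHB library.

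Levels of other genes and of mitochondrial transcripts are set beside these. KRT8, KRT18, ELF3, TFAP2C and NANOG were singled out after their values were seen. The summed level of the keratins KRT8 and KRT18, which mark the trophectoderm epithelium, was 7784 to 12954 CPM in BHB libraries and 10051 to 16674 CPM in control libraries, and both were lower in 3 of 3 pairs. The groups overlapped for each of these keratins (DESeq2 with the block, adjusted p = 0.0635 for KRT8 and 0.0967 for KRT18). Of the 8 trophectoderm markers, KRT8, KRT18 and ELF3 were lower and CDX2, TFAP2C and TEAD4 higher with BHB in 3 of 3 pairs, while GATA2 and GATA3 differed in sign between pairs, and 0 of 8 passed edgeR's test. With both keratins left out, the other 6 summed to 499 to 538 CPM in BHB libraries. In control libraries that sum was 386 to 494 CPM, lower than with BHB and without overlap. The gap was narrow, with 499.1 CPM in the lowest BHB library and 493.8 CPM in the highest control library. TFAP2C was the largest part of this sum in each library. The keratins were left out after their values were seen, and no share over all genes was computed for such sums. ELF3 averaged 20.4 ± 5.62 CPM with BHB and 27.5 ± 9.49 CPM in controls, and TFAP2C 278 ± 16.6 CPM with BHB and 215 ± 55.0 CPM in controls (SD, n = 3 each). NANOG, a factor of the pluripotent epiblast, averaged 38.4 ± 11.1 CPM with BHB and 68.8 ± 7.04 CPM in controls. The groups did not overlap for NANOG, as for 3.78% of all tested genes in this direction. Its log2 differences within pairs were -1.23, -0.86 and -0.52. Without pairing the adjusted p of NANOG was 0.999 in edgeR and 0.368 in DESeq2's Wald test. With the block it was 0.183 in edgeR and 0.00887 in DESeq2. The 5 measured markers of the inner cell mass and epiblast, NANOG included, summed to 549.6 to 626 CPM with BHB and to 593 to 644 CPM in controls. Of these, NANOG was the only one lower in 3 of 3 pairs. LIN28B was higher with BHB in 3 of 3 pairs, by 0.71, 0.37 and 0.29 on the log2 scale. POU5F1, SALL4 and DPPA3 differed in sign between pairs. Mitochondrial transcripts took 8.84% to 9.07% of counts in BHB libraries and 9.17% to 10.7% in control libraries, without overlap. Whether any of these levels bears on those of the 7 genes was not tested. In pooled embryos fewer cells of a type and less RNA per cell cannot be told apart.

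In the ARS-UCD2.0 gene table, which gives no strand, SLC16A7 and BDH1 each overlap another protein-coding gene, SLC16A1 a long noncoding RNA gene and AACS a microRNA gene. None of these neighbours was a row of the count table, and no source used here gives the strand setting of the counting, so reads from them cannot be told apart from those of the named genes.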

How the data were processed

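The authors deposited whole-number counts per gene for 6 libraries and a table of their comparison. STAR, featureCounts and DESeq2 are named in the submitters' processing notes, and no source used here gives their versions, the genome build or the strand setting. The authors' deposited table holds a mean count as linear signal, a log2 fold change of control over BHB with its error, a test statistic (a score) and p-values before and after adjustment.

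Groups come from the treatment in the labels; library numbers follow the order of deposit. All 12826 rows name a gene. After filterByExpr, 12732 genes were tested and 94 were not. The test of BHB against control was the quasi-likelihood F test of edgeR with TMM factors and no covariate (R 4.3.3, edgeR 4.0.16). Benjamini-Hochberg adjustment was made over all tested genes at 0.05. SE is the absolute log2 fold change divided by the square root of F, and intervals use the fit's degrees of freedom. DESeq2 1.42.0, limma-voom 3.58.1, other scalings and filters, and fits without single libraries or pairs were alternatives. The scripts were tested on simulated data.

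The pairing reproduced 99.98% of the deposited p-values; the other 5 pairings matched 0 to 0.398%. The 3 pairs' deviations from group means correlated at 0.46, 0.32 and 0.33 over genes, and those of libraries of different pairs at -0.30 to -0.004. Centring on group means ties these values together, so the negative ones are no separate support for the pairing.

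Log2 CPM uses a prior count of 2. Members and lists were chosen with earlier results of these data known. The text names all members, up to 3 genes per list with the smallest p when none passed, fixed partner genes, and the 3 genes most correlated with SLC16A1, SLC16A7, OXCT1 and ACAT1. A few genes under this rule are left out here. KRT8, KRT18, ELF3, TFAP2C and NANOG were singled out after their values were seen. Intervals of counts and shares cover counting error only.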

Additional observations from a re-analysis of the deposited data

How the results depend on the processing

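None of the 7 genes passed an adjusted p of 0.05 wherever the 20 alternatives run gave one, and SLC16A1, ACAT1 and BDH2 kept their direction in each. DESeq2 with the block gave no adjusted p for BDH1, with all pairs or without any 1 of them, nor for BDH2 and AACS without pair 1 or pair 3. With 1 library left out and no pairing, log2 fold changes ran from -0.40 to -0.13 for SLC16A1, -0.20 to -0.05 for ACAT1, 0.08 to 0.78 for BDH2, -1.35 to 0.16 for SLC16A7, -0.46 to 0.10 for OXCT1, -0.39 to 0.41 for BDH1 and -0.35 to 0.18 for AACS. SLC16A7 and OXCT1 turned only without control library 1 (0.16 and 0.10). BDH1 turned under limma-voom (-0.0226), DESeq2 with the replicate block (-0.00692) and, without pair 2, edgeR and DESeq2 with the block (-0.40 and -0.42), as well as without BHB library 2 (-0.39). AACS turned with DESeq2's size factors (-0.000391), limma-voom (-0.0398), edgeR and DESeq2 with the replicate block (-0.0335 and -0.0413), the same without pair 1 (-0.298 and -0.299) and without pair 2 (-0.00728 and -0.0180), and without BHB library 1 or control library 2 (-0.35 and -0.13). The cause was not tested.

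Over all genes, edgeR called 0 and DESeq2's Wald test 6, or 35 with the replicate block; leaving out pair 1, 2 or 3, edgeR with the block called 4, 16 and 4 genes and DESeq2 13, 12 and 15 (the last fits were added after seeing the data). Leaving out single libraries gave 0 to 1. The replicate block changed no call among the 7 genes, and list counts stayed at 0 with it. The SLC16A7 share differed by -4.60 to 1.70 percentage points and the LDHA share by -2.95 to 0.10 when 1 library was left out. The SLC16A7 share turned without control library 1 (1.70), and the LDHA share without control library 1 (0.10) or BHB library 2 (0.0043). Low counts limit the values of BDH1, SLC16A9, SLC16A12 and EMB, among other sparse genes.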
